A study of Mus musculus with 10 samples.

Results

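The miR-183 cluster is a group of 3 microRNAs, mmu-miR-183-5p, mmu-miR-96-5p and mmu-miR-182-5p, read from neighbouring hairpins on mouse chromosome 6. They were picked by name out of 1340 mature miRNAs in the deposited table. All 3 were found, and all 3 were among the 588 miRNAs kept for testing, whose mean signal over the libraries was at least 10. The tissue label reads RPE/choroid/sclera, meaning the pigment epithelium, the vascular choroid and the fibrous sclera behind the neural retina. Its small RNA was sequenced in 10 libraries, 5 from right eyes and 5 from left eyes, numbered 61, 64, 65, 66 and 68 on both sides. All mice were C57BL/6J, wild type and at postnatal day 34. All animals had a goggle with a -20 D lens over 1 eye for 10 days from postnatal day 24, a treatment that induces myopia, and the other eye had no lens. The labels used here give the side of each eye but not which eye wore the lens, so right eyes were compared with left eyes and the effect of the lens was not analysed here.

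The cluster is transcribed as 1 precursor that is cut into its hairpins, so its miRNAs are made together. It is known for very high levels in photoreceptors and in other sensory cells such as the hair cells of the inner ear. In mouse retina its levels follow light and dark, loss of the cluster harms photoreceptors, and mutations in the seed of miR-96 cause hearing loss. The seed, bases 2 to 8 of a miRNA, is the stretch that pairs with target mRNAs.

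The mature sequences, from RefSeq on build GRCm38.p6, are shown with the seed in capitals, since the seed decides which targets the members can share.
mmu-miR-183-5p: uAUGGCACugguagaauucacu
mmu-miR-96-5p: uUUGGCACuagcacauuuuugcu
mmu-miR-182-5p: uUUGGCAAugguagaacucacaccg

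All 3 lie on the minus strand, miR-183-5p at chr6:30169711-30169732, miR-96-5p at chr6:30169506-30169528 and miR-182-5p at chr6:30165962-30165986. The deposited table gives the same starts, and stops 1 base further on. Counted from the 5′ end, the seeds of miR-183-5p and miR-96-5p differ by A2U, and those of miR-182-5p and miR-96-5p by A8C. Between miR-182-5p and miR-183-5p the seed differences are U2A and A8C. The 3 members therefore have 3 different seeds around a common core. Aligned from the 5′ end without gaps, seed included, miR-182-5p and miR-183-5p are the closest pair, with 18 of 22 positions the same. For miR-182-5p and miR-96-5p 12 of 23 positions were the same, and for miR-183-5p and miR-96-5p 13 of 22.

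The hairpins are shown with both mature arms in capitals, because both arms of each were measured.
Mir183: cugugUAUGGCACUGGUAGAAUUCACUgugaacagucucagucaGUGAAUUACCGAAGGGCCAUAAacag
Mir96: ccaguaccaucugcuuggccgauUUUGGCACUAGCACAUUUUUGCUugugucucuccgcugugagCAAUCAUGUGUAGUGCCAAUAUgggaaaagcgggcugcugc
Mir182: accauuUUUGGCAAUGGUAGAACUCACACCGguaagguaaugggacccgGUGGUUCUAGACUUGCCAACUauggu

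Together the hairpins span 3820 bp, from 30165918 to 30169737. Read in the direction of transcription, Mir183 comes first, Mir96 follows after a gap of 116 bp and Mir182 after a further 3453 bp. In the GENCODE M21 annotation of this build no gene other than the 3 hairpins overlaps the span, so they are intergenic there. The nearest genes are Rncr4, a long non-coding RNA on the plus strand 3155 bp away on the Mir183 side, and the transcription factor gene Nrf1 12459 bp away on the Mir182 side.

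The deposited values are a normalised signal and not read counts, so sequencing depth is unknown. Every rank from 1 to 20 holds a single value in all 10 libraries, so an abundant miRNA takes the value fixed for the rank it reaches. Lower values recur as well. The 17083.7 of miR-183-5p in right eye 65 was also the value of miR-9-5p in left eyes 65 and 68. The 10090 of miR-96-5p in right eye 68 was also that of miR-205-5p in right eye 61. Folds and ratios given below are therefore quotients of such normalised values and not of reads. The pigment epithelium miRNA miR-204-5p ranked first in each library with 1931.8 k (k for kilo-units of signal). The labels' extraction protocol mentions retinae, unlike their tissue field, and does not say whether neural retina was carried over.

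The leading member was miR-182-5p. It had 179, 312, 226, 154 and 1149.5 k in right eyes 61, 64, 65, 66 and 68, against 251.975, 251.975, 404, 251.975 and 226 k in the left eyes of the same numbers. Right eye 68 stood above all other libraries, right eyes 66 and 61 were the lowest, and the sides overlapped. In ranks it was 13, 9, 11, 14 and 2 among right eyes and 10, 10, 8, 10 and 11 among left eyes. The equal values of left eyes 61, 64 and 66 are the value of rank 10, so differences among these 3 libraries cannot be seen. The same holds for right eye 65 and left eye 68, both at the value of rank 11.

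The middle member, miR-183-5p, had 11.5, 33.6, 17.1, 12.7 and 126 k in right eyes 61, 64, 65, 66 and 68, against 18.7, 24.0, 43.0, 19.99 and 16.1 k in the left eyes. Its ranks were 70, 43, 59, 68 and 18 in right eyes and 57, 51, 36, 55 and 60 in left eyes. Right eye 68 was again highest, left eye 65 was next, and the lowest were right eyes 61 and 66.

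The least abundant member, miR-96-5p, had a signal of 860.5, 1752, 1221, 755 and 10090 in right eyes 61, 64, 65, 66 and 68, against 1221, 1387, 2428, 1159 and 1309 in the left eyes. As for miR-183-5p, right eye 68 and then left eye 65 were highest, and the lowest pair was right eyes 66 and 61, here with right eye 66 at the bottom. The 3 members kept the order miR-182-5p, miR-183-5p, miR-96-5p in all 10 libraries, and the ranges did not overlap, since the lowest miR-182-5p value (154 k) was above the highest of miR-183-5p (126 k), and the lowest of miR-183-5p (11.5 k) above the highest of miR-96-5p (10.1 k). Levels of different miRNAs in small RNA libraries also depend on how well each sequence takes the adapters, so the order is one of signal.

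**Figure D1:**
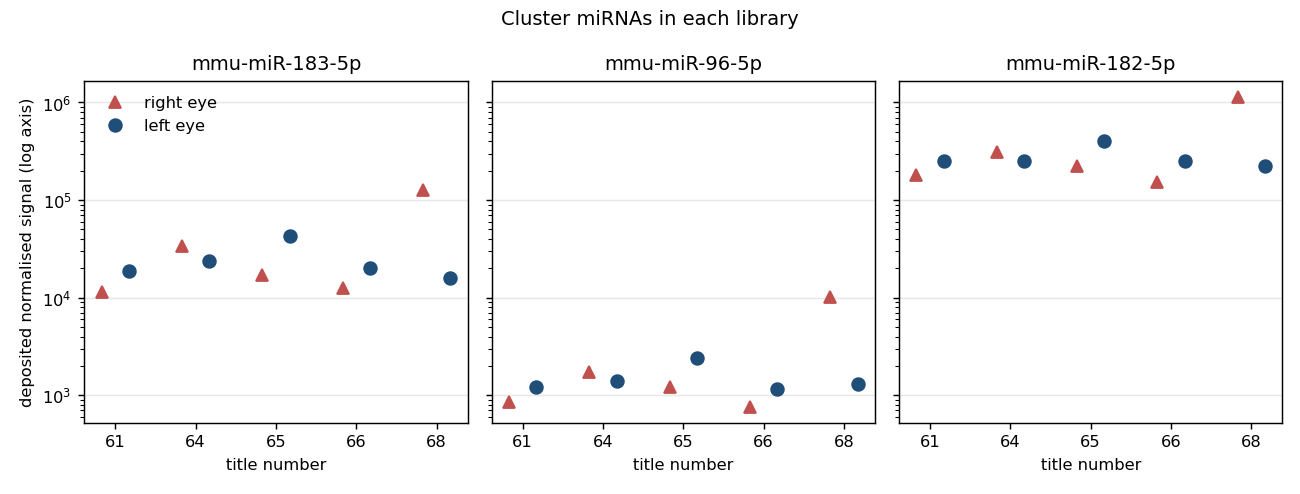
Deposited normalised signal (log axis) of miR-183-5p, miR-96-5p and miR-182-5p in each library, with triangles for right eyes and circles for left eyes, by title number. Right eye 68 is the highest library in all 3 panels, at 126 k for miR-183-5p, 10090 for miR-96-5p and 1149.5 k for miR-182-5p.

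Right eye 68 stood apart for the whole cluster. The 3 members summed to 1285 k there, 10.8% of the library's signal, where the other 9 libraries held between 1.41% and 3.78%. Against the mean of the other 9 libraries, the signal in right eye 68 was 4.59-fold for miR-182-5p, 5.75-fold for miR-183-5p and 7.51-fold for miR-96-5p. For miR-182-5p the step reached was the one of rank 2, with only miR-204-5p above it. Even against the highest of the other libraries the excess was 2.85-fold for miR-182-5p, 2.92-fold for miR-183-5p and 4.16-fold for miR-96-5p. On the log2(signal + 1) scale these were the 3 largest such excesses among the 588 miRNAs, of which 80 (13.6%) were highest in right eye 68. This ranking was looked up after the values of right eye 68 were known and has no test.

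Without right eye 68, the other 9 libraries still differed. In them the highest value was 2.62 times the lowest for miR-182-5p, 3.73 times for miR-183-5p and 3.22 times for miR-96-5p. From high to low the cluster sum ran 449 k in left eye 65, 347 k in right eye 64, 277, 273 and 272 k in left eyes 64, 66 and 61, 244 k in right eye 65, 243 k in left eye 68, 192 k in right eye 61 and 167 k in right eye 66. Within this order left eyes 64, 66 and 61 have the same step of miR-182-5p, so their sums differ only through miR-183-5p and miR-96-5p. Right eye 65 and left eye 68 likewise share a step of miR-182-5p, at 225.576 k. For miR-96-5p right eye 65 and left eye 61 share the value 1220.51.

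The first comparison asked whether the cluster differs between right and left eyes. Mean signals were 404 ± 421 k in right and 277 ± 71.7 k in left eyes for miR-182-5p (SD, n = 5 each). For miR-183-5p they were 40.1 ± 48.6 k in right and 24.4 ± 10.8 k in left eyes, and for miR-96-5p 2936 ± 4018 in right and 1501 ± 525 in left eyes. The SD in right eyes exceeded the mean difference for every member. In limma over all 588 miRNAs, with the title number as a block, the log2 difference was 0.12 with an SE of 0.45 for miR-182-5p, adjusted p = 0.983. It was 0.15 with an SE of 0.58 for miR-183-5p, adjusted p = 0.985, and 0.23 with an SE of 0.54 for miR-96-5p, adjusted p = 0.967. None of the 3 passed, and 0 of all 588 miRNAs (0%) passed an adjusted p of 0.05 in limma. At an unadjusted p under 0.05 there were 13 (2.21%), and no member was among them.

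The 95% intervals of these log2 differences were wide, from -0.94 to 1.19 for miR-182-5p, -1.22 to 1.52 for miR-183-5p and -1.05 to 1.52 for miR-96-5p, so a 2-fold difference in 1 direction or both is within them. A different share of the cells that hold the cluster and a different level per cell could not be told apart in such bulk tissue. At every number the difference between the eyes had the same sign for all 3 members. The right minus left difference of miR-182-5p was -0.49, 0.31, -0.84, -0.71 and 2.35 log2 units in numbers 61, 64, 65, 66 and 68. For miR-183-5p it was -0.70, 0.48, -1.33, -0.66 and 2.96, and for miR-96-5p -0.50, 0.34, -0.99, -0.62 and 2.95.

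The right eye was thus lower in 3 of 5 pairs, higher in 2, and the mean difference was above 0 through number 68. Without number 68 the direction turned, with log2 differences of -0.43 for miR-182-5p, -0.55 for miR-183-5p and -0.44 for miR-96-5p. None passed there either (adjusted p = 0.830 for each in limma). No member had 1 direction in all 5 pairs, which held for 17 of the 588 miRNAs (2.89%). The cluster sum gave the same picture, at 447 ± 474 k in right and 303 ± 82.8 k in left eyes. Its log2 difference of 0.13 had p = 0.938 by an exact permutation test (two-sided, flipping signs of pairs), whose smallest possible p with 5 pairs is 0.0625. Without number 68 it was -0.44.

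**Figure D2:**
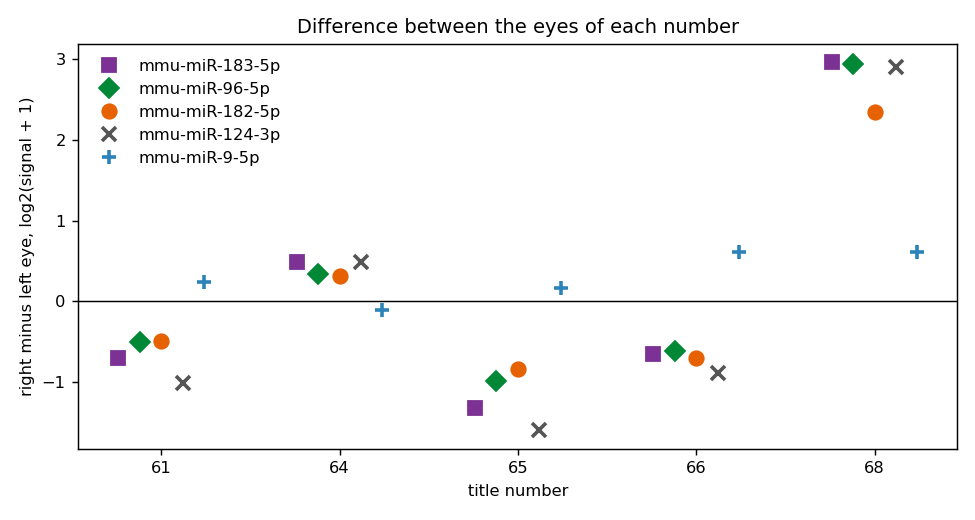
Difference between the right and the left eye of each title number, in log2(signal + 1), for the 3 cluster miRNAs, the neuronal miR-124-3p and the neural miR-9-5p. The cluster miRNAs and miR-124-3p lie on the same side of 0 at each number, from -1.60 for miR-124-3p in number 65 to 2.96 for miR-183-5p in number 68. On the other side of 0 lies miR-9-5p, except in number 68, where it is at 0.61.

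The second comparison asked whether the ratios of the members' normalised signals differ between sides. The ratios varied less over the libraries than the levels, by a margin that depends on right eye 68. In right eyes 61, 64, 65, 66 and 68 miR-182-5p was 15.6, 9.28, 13.2, 12.2 and 9.16 times miR-183-5p, against 13.4, 10.5, 9.39, 12.6 and 14.0 times in left eyes. Both sides covered about the same range, and the SD over the 10 libraries was 0.28 log2 units for this ratio where it was 0.81 for miR-182-5p itself and 1.02 for miR-183-5p. Without right eye 68 it was 0.26 for the ratio, 0.41 for miR-182-5p and 0.62 for miR-183-5p. Such closeness was not particular to the cluster. On the log2 scale miR-183-5p had a Pearson r of 0.989 with the neuronal miR-124-3p, against 0.981 with miR-182-5p and 0.976 with miR-96-5p.

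The ratio of miR-183-5p to miR-96-5p was 13.4, 19.2, 14.0, 16.8 and 12.4 in right eyes and 15.4, 17.3, 17.7, 17.2 and 12.3 in left eyes. The lowest value on each side belonged to number 68. Between miR-182-5p and miR-96-5p the ratio was 208, 178, 185, 203.9 and 114 in right eyes and 206, 181.7, 166, 217 and 172 in left eyes. Right eye 68 was the low one, and the other 9 libraries lay between 166 and 217. There miR-182-5p held the rank 2 step of 1149.5 k, and its next higher step is the 1931.8 k of miR-204-5p. Whether the low ratio in that library reflects reads or the rank steps was not tested.

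With 5 pairs the exact permutation cannot give a p under 0.0625, so no ratio could pass 0.05 here, and the differences are given for their size. The log2 difference, right minus left, was -0.03 for miR-182-5p over miR-183-5p, -0.11 for miR-182-5p over miR-96-5p and -0.08 for miR-183-5p over miR-96-5p. The exact sign-flip permutation gave p = 0.875, 0.625 and 0.375 in that order, all 0.875 after Benjamini-Hochberg adjustment over the 3 ratios. Without number 68 the first 2 of these differences turned positive, at 0.12 and 0.01.

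**Figure D3:**
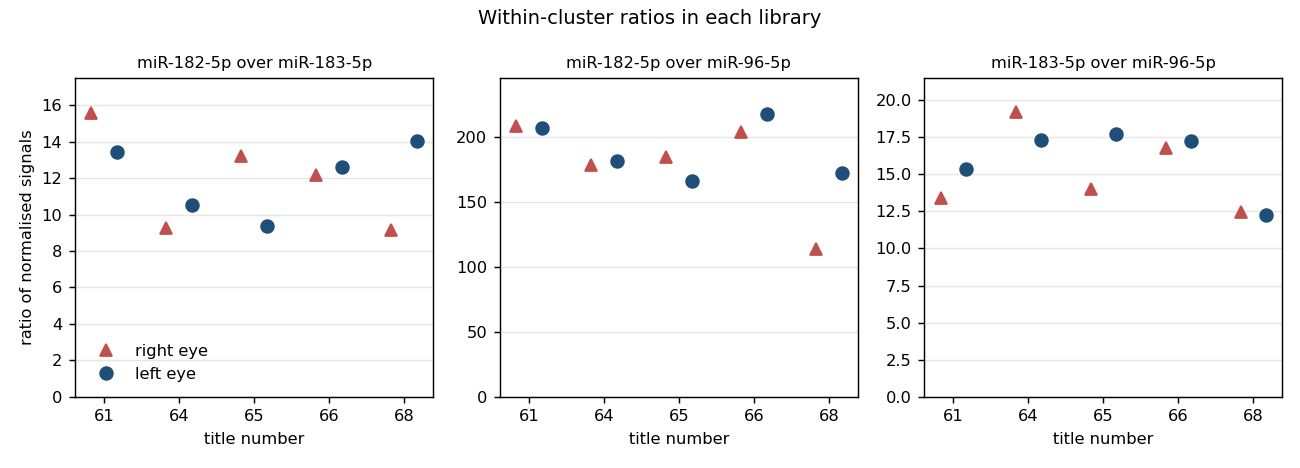
Ratios of normalised signals between the cluster miRNAs in each library, with axes from 0, triangles for right eyes and circles for left eyes. The ratio of miR-182-5p to miR-96-5p is 114 in right eye 68 and 166 to 217 in the other 9 libraries, while the other 2 ratios show no library apart.

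The third comparison set the guide arm of each hairpin against its passenger arm. The 5p arm dominated in every library for each hairpin. The best measured passenger arm, miR-183-3p, had a signal of 132, 302, 182.5, 109 and 919 in right eyes 61, 64, 65, 66 and 68, against 159, 208, 371, 176 and 136.9 in left eyes. It followed its guide arm, with right eye 68 and left eye 65 highest and right eyes 66 and 61 lowest. The 5p arm was 87.1 to 136.6 times as high in right eyes and 114 to 118 times in left eyes. The other passenger arms were low, with miR-182-3p between 3.40 and 46.6 and miR-96-3p between 2.0 and 29.8. Both were also highest in right eye 68, at 5.24 and 4.41 times the mean of the other 9 libraries.

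On the log2 scale the arm ratio of right eyes minus that of left eyes was 0.04 for miR-182, -0.11 for miR-183 and -0.38 for miR-96. The exact sign-flip permutation gave p = 0.938, 0.375 and 0.5, adjusted to 0.938, 0.750 and 0.750 over the 3 hairpins, with the same lower limit on p. With a pseudocount of 10 the difference for miR-96 was -0.04. As single miRNAs, miR-183-3p and miR-182-3p had log2 differences of 0.26 and 0.08 in limma, adjusted p = 0.967 and 0.985. The mean of miR-96-3p was under the minimum of 10, so it was not tested singly. For miR-96-3p the right eye was higher in 4 of 5 pairs, where the guide arm was higher in 2.

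A search of 1679 mature mouse miRNAs in the RefSeq table for the 3 seeds found 1 other miRNA with a shared seed, miR-1271-5p, which has the seed of miR-96-5p.
mmu-miR-1271-5p: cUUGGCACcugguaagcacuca
It lies on the plus strand at chr13:54578152-54578173 and was listed at 0 in 7 libraries, including all 5 right eyes, and at no more than 1.60 in the left eyes. Of the signal of the miRNAs found with this seed, nearly all was therefore miR-96-5p. Measured miRNAs without a sequence there, such as miR-383-5p, could not be searched. No other miRNA in that table carried the seeds of miR-182-5p or miR-183-5p.

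The spread over libraries was large for miRNAs of this abundance. The SD of log2(signal + 1) over the 10 libraries was 0.81 for miR-182-5p, 1.02 for miR-183-5p and 1.06 for miR-96-5p, where the median was 0.34 for the 588 miRNAs and 0.22 for the 150 most abundant. Among these 150 the 3 members took places 7, 6 and 5. Ahead of them came the surface epithelium miRNAs miR-205-5p, miR-200b-3p and miR-184-3p and the neuronal miR-124-3p. Without right eye 68 the SD was 0.41, 0.62 and 0.50, and the places among the 150 were 19, 8 and 13, with a median of 0.20. These places are a description, with no test.

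**Figure D4:**
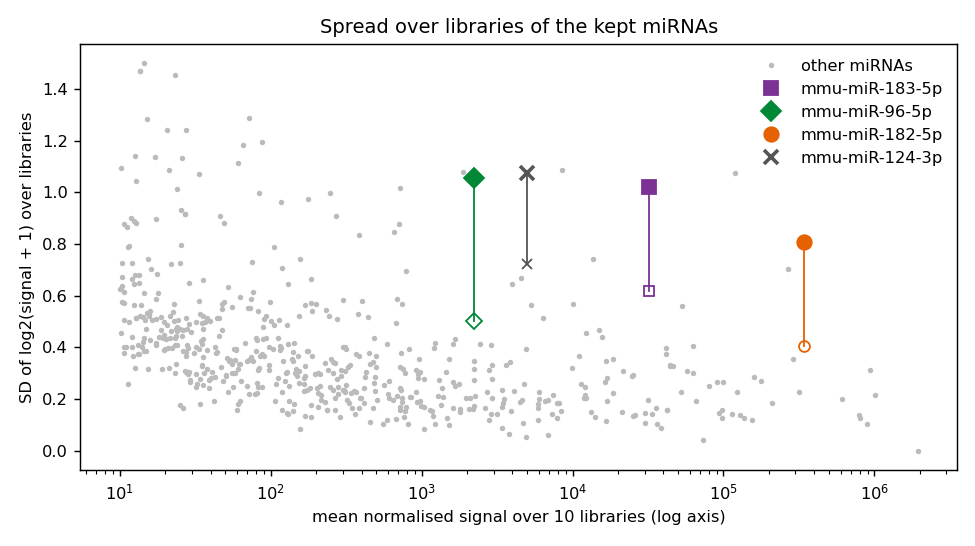
SD of log2(signal + 1) over libraries against mean normalised signal (log axis) for the 588 kept miRNAs in grey, with the cluster miRNAs and miR-124-3p in colour. Filled or bold symbols use all 10 libraries and the smaller or open symbols below leave out right eye 68, which takes miR-96-5p from 1.06 to 0.50.

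Over the 10 libraries the members resembled each other, though some miRNAs outside the cluster were as close or closer. The Spearman rho was 0.97 for miR-182-5p and miR-183-5p, 0.88 for miR-182-5p and miR-96-5p and 0.88 for miR-183-5p and miR-96-5p. Without right eye 68 it was 0.96, 0.83 and 0.83. The libraries come in 5 pairs and share the rank steps, so these values describe these 10 libraries only. On the log2 scale the Pearson r of the same pairs was 0.98, 0.99 and 0.98. By rho, the closest of all kept miRNAs to miR-182-5p was miR-124-3p, from outside the cluster. Its cluster mates miR-183-5p and miR-96-5p took places 2 and 9. For miR-183-5p the closest was miR-182-5p, with miR-96-5p at place 10. For miR-96-5p, miR-182-5p and miR-183-5p took places 6 and 7.

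Outside the cluster the closest to miR-182-5p and also to miR-183-5p was miR-124-3p, the main neuronal miRNA, with a rho of 0.98 and 0.96. It had a signal of 1752, 5278, 2428, 1555 and 19089 in right eyes 61, 64, 65, 66 and 68, against 3553, 3768, 7383, 2891 and 2537 in left eyes. Like the cluster it was highest in right eye 68 and next in left eye 65, and lowest in right eyes 66 and 61. Without right eye 68 it still led, at 0.98 for miR-182-5p, tied with miR-1247-5p, and 0.95 for miR-183-5p. For miR-96-5p the closest was miR-190b-5p (0.98), followed by miR-129-5p (0.93), miR-124-3p and miR-383-5p (0.92 each) and miR-384-5p (0.83).

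The brain-enriched miR-129-5p was second for miR-182-5p at 0.92 and for miR-96-5p, and shared second place for miR-183-5p at 0.89. The further names for miR-182-5p were the hypoxia-induced miR-210-3p (0.91), miR-5121 (0.90) and miR-3078-5p (0.88), and for miR-183-5p the passenger arm miR-124-5p and miR-383-5p (0.89 each) and miR-210-3p (0.89). Of these 9 miRNAs, 5 had a RefSeq sequence here, and none of the 5 shares a seed with a member. Several of these names rest on right eye 68. Without it the 5 closest to miR-182-5p were miR-124-3p, miR-1247-5p (0.98), miR-135a-5p (0.90), miR-129-5p (0.89) and miR-1247-3p (0.89). For miR-183-5p they were miR-124-3p, miR-1247-5p (0.93), miR-378a-3p (0.92), miR-18a-5p and miR-6901-5p (0.90 each), and miR-129-5p fell out of the 5 at 0.85. For miR-96-5p they were miR-190b-5p (0.97), miR-378a-5p (0.96), miR-129-5p (0.90), miR-124-3p and miR-383-5p (0.90 each).

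**Figure D5:**
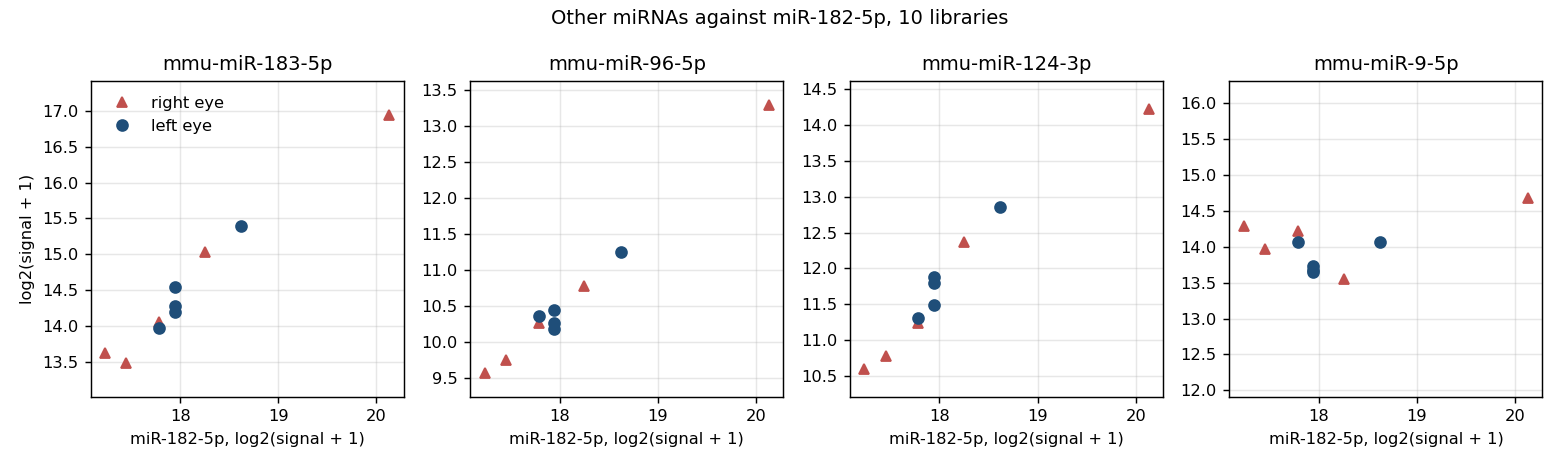
Signal of miR-183-5p, miR-96-5p, miR-124-3p and miR-9-5p against miR-182-5p in the 10 libraries, all as log2(signal + 1), with the same height of 4.4 log2 units in each panel. The first 3 climb with miR-182-5p, with rho of 0.97, 0.88 and 0.98, and miR-9-5p does not, with a rho of -0.15 (-0.59 without right eye 68).

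A list of other neural miRNAs was set beside the cluster. Of the 13 listed, 12 are in the table and 10 of these were highest in right eye 68, as were 80 of all 588 kept miRNAs (13.6%). These 10 are not independent, since miR-129-1-3p and miR-129-2-3p have equal values in every library except right eye 68. Their summed signal was 20.2 to 50.9 k in right and 19.6 to 28.0 k in left eyes, and the 50.9 k belonged to right eye 68. The list did not move as one. In right eye 68 miR-218-5p had 585, below its 716 in left eye 65, and miR-219a-2-3p had 34.4, below its 501 in left eye 66. There miR-128-3p had 1335 and miR-9-3p 1159, where the highest of the other libraries had 1128 and 1092. Most of the summed signal was miR-9-5p, abundant in neural progenitors and glia. It had 16.1, 11.95, 19.1, 19.99 and 26.1 k in right eyes 61, 64, 65, 66 and 68, against 13.6, 12.9, 17.1, 13.1 and 17.1 k in left eyes, and its rho with miR-182-5p was -0.15. Without right eye 68 that rho was -0.59, and the Pearson r on the log2 scale was 0.46 with and -0.44 without that library. In right eye 68 it stood at 1.67 times the mean of the other 9 libraries, where miR-124-3p stood at 5.52 times and miR-129-5p at 4.39 times. Only miR-137-3p of the list was listed at 0 in any library, and none of the 11 kept members passed in limma, with 5 higher and 6 lower in right eyes and a median log2 difference of -0.02, beside 0.02 for all 588 miRNAs.

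Epithelial and connective tissue lists did not peak in right eye 68. Epithelial miRNAs, among them the miR-200 family, summed to 59.9 k there, inside the 24.7 to 245 k of the other 9 libraries. In the mean over pairs all 7 were lower in right eyes, and none passed in limma. Their median log2 difference was -1.04, beside 0.02 for all kept miRNAs. At number 61 all 7 went the other way, with miR-200b-3p at 3037 in the right and 1335 in the left eye. The 7 are not independent, since several belong to the same family. The 5 fibroblast and smooth muscle miRNAs summed to 858 k in right eye 68 and 845 to 1074 k elsewhere, with a median log2 difference of 0.02 and none called. The sum of the pigment epithelium pair, 1959 to 1989 k in right and 1969 to 1989 k in left eyes, could hardly move, since miR-204-5p holds the fixed value of rank 1 in every library. The other one, miR-211-5p, had 38.7 k in right eye 68, inside the 27.2 to 57.3 k of the others. The part of carried-over retina or of any other cell type in the cluster's values was not tested.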

How the data were processed

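The deposited values are a normalised signal per mature miRNA. Per the submitters' processing notes Bowtie and Partek were used with build GRCm38 (mm10), and the versions and the normalisation are not given in the sources used here. The signal columns deposited by the authors sum to between 11878152 and 11879036, and 7.31% of values above 0 are whole within 0.001, so reads were not recovered, no count model was used and no counting interval or floor can be given. Members and lists were chosen with earlier results of these data known. Values were analysed as log2(signal + 1), which understates changes of low miRNAs, for the 588 miRNAs with a mean of at least 10. Right eyes were compared with left eyes in limma 3.58.1 under R 4.3.3 with trend, blocking on the title number, and p-values (two-sided) were adjusted by Benjamini-Hochberg over all miRNAs at 0.05. The block follows the labels' protocol, which compares an animal's eyes, and the shared title number was read as the animal. Across miRNAs, deviations from the side mean correlated between eyes of a number at 0.12, 0.45, 0.01, -0.13 and 0.28, so the pairing rests on the labels. Litters and runs are not given there. The p-values of the blocked fit and of the sign-flip tests measure only how right minus left differences spread over these 5 pairs. Ratios and sums were compared by exact sign-flip permutation of the 5 pairs. Scripts were tested on simulated data. The named miRNAs are the members, their passenger arms, miRNAs with a member's seed, the 5 outside miRNAs most like each member by Spearman rho, and 4 marker lists. Names outside this rule were chosen after their values were seen. Alternatives were pseudocounts of 0.5 and 10, no filter or a minimum mean of 100, no trend, no block, median-of-ratios scaling, ranks, and leaving out each number.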

Additional observations from a re-analysis of the deposited data

Results flagged for a closer look

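In groups of 5 eyes, a library was picked out where its gap to the nearest other value exceeded 0.71 of the range of its side. Of 26 groups checked on the log2 scale 4 were picked out, and of the same 26 on the untransformed scale 9. Chance flags about 1 group in 20 only if values are normally distributed, which was not tested on either scale. The items are members, arms, their sum and their ratios, so they are not independent.

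On the untransformed scale right eye 68 lay far above the other right eyes in miR-182-5p (1149.5 k), miR-183-5p (126 k), miR-96-5p (10.1 k), the cluster sum (1285 k), miR-183-3p (919) and miR-96-3p (29.8). On the log2 scale it stood out only in the ratio of miR-182-5p to miR-96-5p, at 114 against 178 to 208 in the other right eyes. Left eye 65 lay far above the other left eyes on both scales in miR-182-5p (404 k), miR-96-5p (2.43 k) and the cluster sum (449 k).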

How the results depend on the processing

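Of 39 alternative limma fits of the 3 members, 36 kept the sign, and the adjusted p ran from 0.830 to 1. The 3 others leave out number 68. Filter, trend and block settings cannot change these mean differences, so the fits that alter only them say nothing on the sign. With a number left out the log2 difference, right minus left, ran from -0.43 to 0.36 for miR-182-5p, -0.55 to 0.52 for miR-183-5p, -0.44 to 0.54 for miR-96-5p, -0.37 to 0.57 for miR-182-3p (not kept without 68) and -0.36 to 0.58 for miR-183-3p. It ran from -0.44 to 0.38 for the cluster sum, -0.16 to 0.12 for miR-182-5p over miR-183-5p, -0.18 to 0.011 for miR-182-5p over miR-96-5p, and -0.14 to -0.02 for miR-183-5p over miR-96-5p. For the arm ratios it ran from -0.30 to 0.45 for miR-182, -0.19 to -0.03 for miR-183 and -0.65 to -0.03 for miR-96. With a pseudocount of 10 the miR-182 arm ratio turned to -0.027, and that of miR-96 shrank from -0.38 to -0.04. The causes were not tested.

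Without the replicate block the members' differences are the same by design, at 0.12, 0.15 and 0.23 (adjusted p = 0.997 in limma). The cluster sum had an exact permutation p = 0.897, and no call changed. With ranks in place of values (minus log2 of the rank) the differences were 0.26 for miR-182-5p, 0.13 for miR-183-5p and 0.08 for miR-96-5p. No miRNA passed under any alternative in limma. The unknown depth, the rank steps and 5 pairs limit what could be seen.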
